A study of Mus musculus with 60 samples.

Results

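Cwc22 and 7 copies of its coding sequence, Gm13691, Gm13693, Gm13694, Gm13695, Gm13696, Gm13697 and Gm13698, were followed across 60 RNA-seq libraries of mouse hippocampus. They are 8 of 47643 gene symbols in the deposited table, and they were selected on their expression values in these same 60 libraries, where an earlier look had shown a high and a low level. Their levels are therefore given as a description. All 8 were among the 15608 genes that reached a TPM (an abundance in which reads are scaled by gene length and by library total) of at least 1 in at least 4 libraries. The labels give female mice that received cachectic melanoma cells (CAC, 21 libraries), non-cachectic melanoma cells (NCAC, 19) or a mock injection (Con, 20). Hippocampus was taken 2, 4, 6 and 8 wk later. At these times CAC had 4, 5, 5 and 7 libraries, NCAC had 5, 5, 4 and 5, and Con had 5 at each. The age given is 2 months. The strain is C57BL6/J in the sample labels and NCI Ath/nude in the design text, and the extract protocol mentions LLC cells, which match no group here. No label says whether each library came from a different mouse, so the errors below measure the spread between libraries.

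CWC22 is a spliceosome protein. It binds the RNA helicase EIF4A3, and it is needed both for splicing and for placing the exon junction complex, a protein mark left on spliced mRNA that later guides export, translation and nonsense-mediated decay. In the mouse, Cwc22 lies in a segment of chromosome 2 whose copy number is known to differ between strains, so that some mice carry many more copies of the gene than others. Mice of an inbred strain are close to genetically identical, whereas an outbred stock keeps several versions of such segments. DNA copy number was not analysed here.

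On GRCm38, the build named mm10 in the submitters' processing notes, Cwc22 spans chr2:77881159-77946375 on the minus strand, with 13 transcripts in GENCODE M21. The 7 copies stand in a row on the plus strand, 6.01 Mb from the start of Cwc22. Gm13698, Gm13693, Gm13695, Gm13696, Gm13694, Gm13697 and Gm13691 follow each other at a spacing of 5810 bases, and together they span 37353 bases, chr2:83955693-83993045. Each is a single exon of 2493 bases without introns, which GENCODE types as protein coding and RefSeq on GRCm38.p6 lists as a pseudogene. No other annotated gene starts within that row.

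The annotated sequences show which members reads can tell apart. Gm13691, Gm13693, Gm13694, Gm13696, Gm13697 and Gm13698 are identical over all 2493 bases, and Gm13695 differs from them at 1 base, A1280T, counted from 1 at the 5′ end with the base of Gm13698 first. Aligned to the Cwc22 transcript Cwc22-203, a copy matches at 2438 of 2496 aligned positions (97.7%), with 39 mismatches and 19 gap bases. The largest gap is 15 bases that the copies have and Cwc22 lacks. It falls among near-identical units of 15 bases, so which unit Cwc22 lacks is uncertain. The aligner set the gap at 1270 to 1284 of the copies, a stretch that holds the base particular to Gm13695. That stretch is shown in capitals below, at chr2:83956932-83957006 for Gm13698, chr2:83968552-83968626 for Gm13695 and chr2:77917072-77917131 on the minus strand for Cwc22.
Gm13698 (same in the 5 other identical copies): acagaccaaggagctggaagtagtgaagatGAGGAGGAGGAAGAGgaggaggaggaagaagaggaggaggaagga
Gm13695: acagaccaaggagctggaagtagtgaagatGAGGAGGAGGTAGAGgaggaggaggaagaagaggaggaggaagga
Cwc22: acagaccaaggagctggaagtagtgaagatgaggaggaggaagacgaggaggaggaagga

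The 60-base window with the most mismatches between Cwc22 and a copy holds 6 of them, in capitals. It lies at chr2:83955943-83956002 in Gm13698 and at chr2:77929395-77929454 on the minus strand in Cwc22.
Gm13698: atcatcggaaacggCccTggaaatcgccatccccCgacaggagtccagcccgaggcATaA
Cwc22: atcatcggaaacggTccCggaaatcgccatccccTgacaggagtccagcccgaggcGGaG
Elsewhere the sequences run together for up to 344 bases, 496 to 839 of the copies. Of all windows of 100 bases in a copy, 21.4% occur unchanged in a Cwc22 transcript, and of windows of 150 bases, 9.5%. Only 4.2% of the windows of 100 bases in Gm13695 contain the base that sets it apart. How reads that fit several places were counted is not given in the sources used here, so the split between members is uncertain, and most of all the split among the 6 identical copies.

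Cwc22 was either low or very high, with nothing between. In 47 libraries it lay between 11.3 and 18.7 TPM, with a median of 14.7, a 1.66-fold range. In the other 13 libraries it lay between 251 and 629 TPM, a 2.51-fold range. The lowest of the 13 was 13.4-fold above the highest of the 47. On the scale used for tests, log2(TPM + 0.5), the empty gap was 3.71 wide.

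Mock-injected mice were low in Cwc22 except for a single library. At 2 wk the 5 Con libraries held 18.7, 14.8, 14.8, 14.1 and 12.8 TPM, and at 4 wk 17.8, 15.8, 14.6, 14.9 and 15.8 TPM. At 6 wk the Con values were 14.4, 15.6, 12.1, 13.9 and 14.2 TPM. At 8 wk replicate 1 stood at 400 TPM, and replicates 2 to 5 at 13.1, 11.9, 11.3 and 11.5 TPM. That library is 1 of 20 in the mock group, and the lowest 2 values of all 60 libraries were found in the same group at the same time.

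NCAC held high libraries at every time. At 2 wk replicate 1 had 560 TPM, and the others 15.8, 12.8, 15.2 and 13.3 TPM. At 4 wk replicates 4 and 5 had 252 and 291 TPM, against 14.2, 12.4 and 14.0 TPM in replicates 1 to 3. At 6 wk replicates 3 and 4 had 556 and 629 TPM, against 14.5 and 14.2 TPM. In the group taken at 8 wk, 3 of 5 libraries were high, with 251, 549 and 274 TPM in replicates 1, 3 and 4 and 14.6 and 11.5 TPM in replicates 2 and 5. In all, 8 of 19 NCAC libraries lay above the gap.

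Among CAC libraries 4 of 21 lay above the gap. Replicate 1 at 2 wk held 284 TPM, and replicates 2, 4 and 5 held 17.7, 16.7 and 15.0 TPM. The 4 wk group was low throughout, at 17.3, 15.6, 15.8, 14.8 and 16.2 TPM. At 6 wk replicates 3 and 5 held 303 and 579 TPM, against 15.7, 15.3 and 16.3 TPM in replicates 1, 2 and 4. Of the 7 libraries at 8 wk, replicate 6 held 268 TPM, and the group's lowest and median values were 12.1 and 14.7 TPM.

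High libraries therefore occurred under all 3 injections, with shares of 4 of 21 in CAC, 8 of 19 in NCAC and 1 of 20 in Con. By time they were 2 of 14 at 2 wk, 2 of 15 at 4 wk, 4 of 14 at 6 wk and 5 of 17 at 8 wk. Of the 12 groups, 8 held both kinds of library, 4 held low ones only and 0 held high ones only. Because this spread was part of the reason for choosing the genes, no test of these counts is given. The comparisons between injections further below describe the same spread again and add no evidence on it. In bulk tissue, more cells with the transcript and more transcript per cell cannot be told apart.

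**Figure D1:**
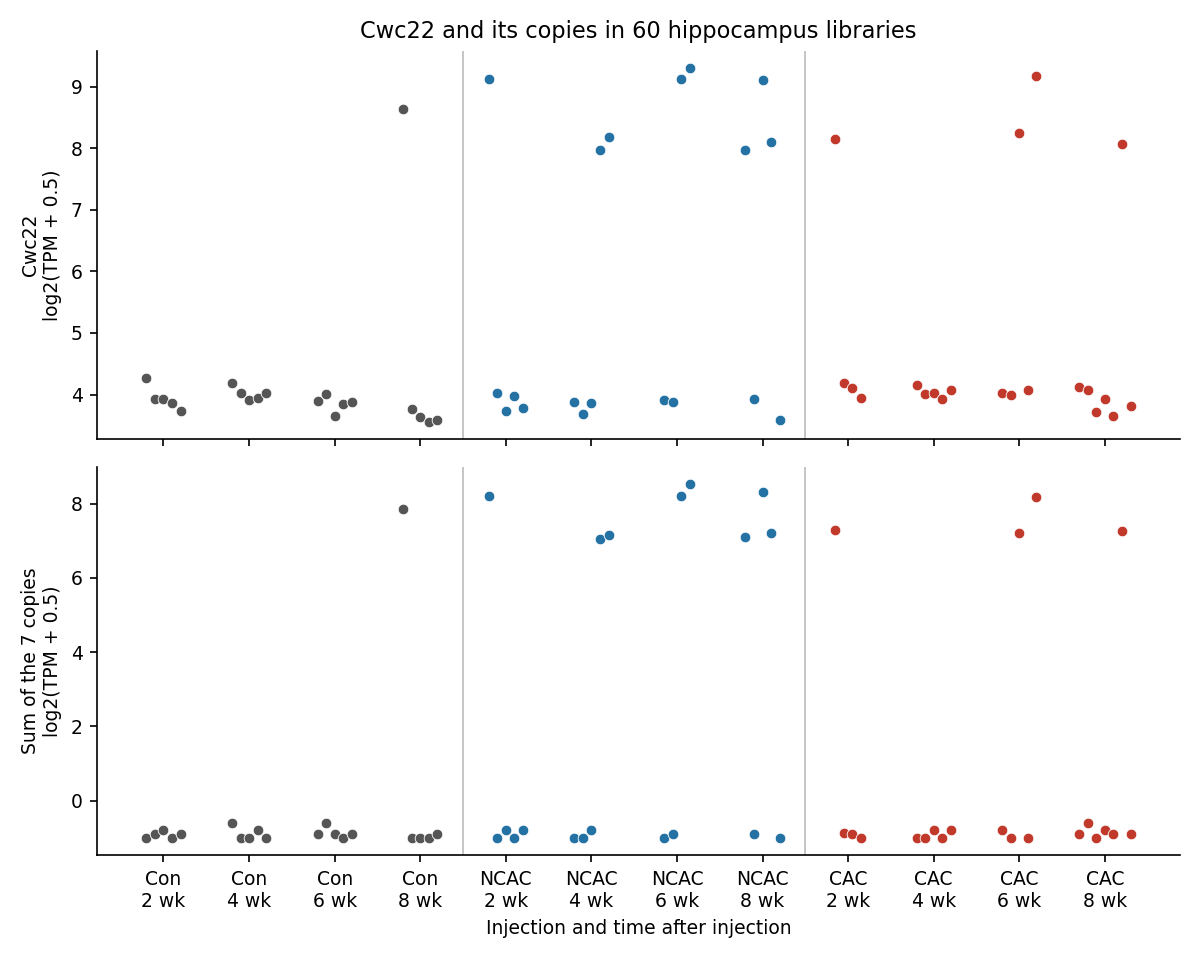
Each point is 1 of 60 libraries, by injection and time after injection; the upper panel shows Cwc22 and the lower panel the sum of its 7 copies, both as log2(TPM + 0.5). Points form a low and a high level with nothing between, and the same 13 libraries are high in both panels.

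The 13 high libraries were not alike in level. Of these, 7 held between 251 and 303 TPM of Cwc22, a 1.21-fold range, and 5 held between 549 and 629 TPM, a 1.14-fold range. Con replicate 1 at 8 wk stood between them, at 400 TPM. The lowest of the 5 was 1.81-fold above the highest of the 7. Both bands held CAC and NCAC libraries: the lower band had 3 CAC and 4 NCAC libraries, and the upper band 1 CAC and 4 NCAC libraries. No sequencing or extraction batch is given in the labels, so a comparison within batches was not possible.

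The copies were at or near 0 wherever Cwc22 was low. Whole reads could be recovered from the TPM values, and in the 47 low libraries the 7 copies gave 329 values, of which 290 were 0 reads, 35 were 1 read and 4 were 2 reads. Their highest value was 0.0816 TPM. A count of 0 in these libraries allows up to 3 reads, or 0.0943 to 0.129 TPM of a copy. The same libraries held 860 to 1321 reads of Cwc22, and at most 3.64 reads of all copies together per 1000 reads of Cwc22. Cwc22 made up at least 99.0% of the summed TPM of the family there.

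All 7 copies had reads assigned to them in each of the 13 high libraries. For the identical copies this cannot show which of them were transcribed. The sum of the 7 copies ran from 131 TPM in NCAC replicate 4 at 4 wk to 366 TPM in NCAC replicate 4 at 6 wk, with a median of 156. Cwc22 itself held 18199 to 49596 reads in these libraries, and the copies together 3453 to 10549. That came to 179 to 213 copy reads per 1000 reads of Cwc22, so the ratio differed little while the level of Cwc22 varied 2.51-fold. In the lower band of 7 libraries this ratio ran from 179 to 209, and in the upper band of 5 from 182 to 213. Per length, Cwc22 remained the larger part, with 63.2 to 67.1% of the family's TPM.

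The 6 identical copies were nearly equal within a library. No read within their sequence can tell them apart, so this equality does not give the level of any single copy. Gm13691 lay between 20.6 and 59.2 TPM, Gm13693 between 22.2 and 57.7, Gm13694 between 21.9 and 57.2, Gm13696 between 21.7 and 61.2, Gm13697 between 21.6 and 61.9, and Gm13698 between 20.7 and 60.3 TPM. Each had 530 to 1784 reads. Their coefficient of variation within a library was 1.62 to 6.00%, and sampling of that many reads alone would give 2.41 to 4.19%, a figure that covers counting error only. The mean of the 6 was 8.04 to 9.47% of Cwc22 in TPM. Across the 13 libraries their Spearman rank likeness to Cwc22 ran from 0.77 for Gm13694 to 0.91 for Gm13696. Within the 47 low libraries it ran from −0.09 to 0.29, on values of 0 to 2 reads.

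**Figure D2:**
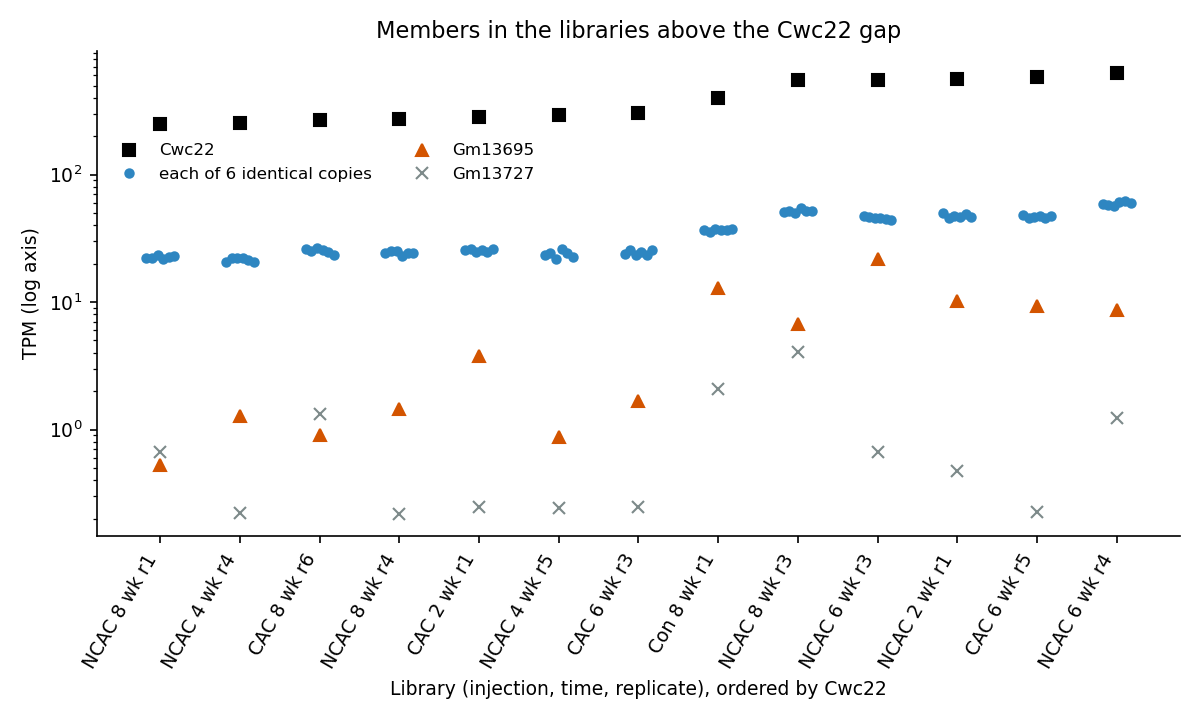
TPM on a log axis in the 13 libraries with high Cwc22, ordered by Cwc22; squares are Cwc22, circles the 6 identical copies, triangles Gm13695 and crosses Gm13727. The circles of a library lie close together and follow Cwc22, and Gm13695 ranges more widely, from 0.526 to 21.9 TPM.

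Gm13695, the copy with the single differing base, did not keep a steady proportion to the other 6. Across the 13 high libraries its Spearman likeness to Cwc22 was 0.80, within the range of those 6. Between 251 and 303 TPM of Cwc22, its values in order of Cwc22 were 0.526, 1.29, 0.904, 1.44, 3.76, 0.867 and 1.68 TPM. In Con replicate 1 at 8 wk it held 12.8 TPM. In the upper band the values in order of Cwc22 were 6.72, 21.9, 10.2, 9.31 and 8.60 TPM. The 2 bands of Cwc22 therefore did not overlap in Gm13695 either, but the order within each band was not that of Cwc22, and Con replicate 1 at 8 wk held more Gm13695 than 4 of the 5 libraries of the upper band.

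Relative to the mean of the 6 identical copies, Gm13695 stood at 2.33 to 14.8% in the lower band and at 12.98 to 47.9% in the upper band. NCAC replicate 3 at 6 wk had the highest share, 47.9%, and Con replicate 1 at 8 wk the next, 34.9%. Those libraries held 576 and 363 reads of Gm13695, and NCAC replicate 1 at 8 wk held 14. The share thus varied widely between libraries. Since few reads can cover the differing base, it depends on the counting of reads that fit several places, whose part in the result was not tested.

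**Figure D3:**
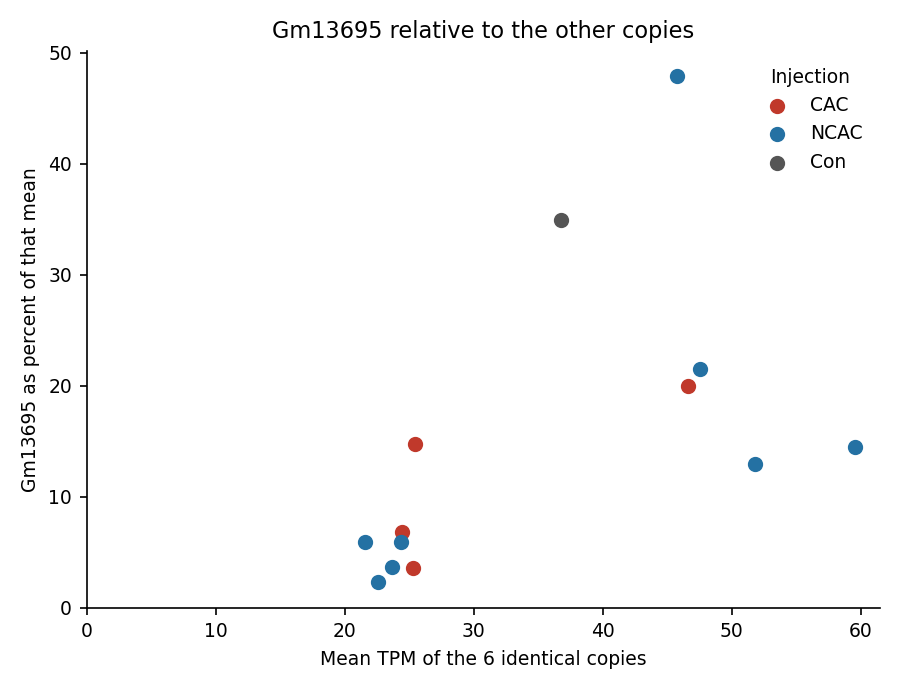
Gm13695 as a percent of the mean of the 6 identical copies (vertical axis), against that mean in TPM (horizontal axis), in the 13 libraries with high Cwc22, coloured by injection. The lowest share is 2.33% and the highest 47.9%, and libraries with nearly the same mean differ in share.

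Gm13727, a processed transcript at chr2:77879753-77881467 that overlaps the 3′ end of Cwc22 on the same strand, was the non-member most like Cwc22. It lay between 0.217 and 4.03 TPM in the 13 high libraries, with a median of 0.473. It was at 0 in 46 of the 47 others, with 0.469 TPM in the remaining one. Gm13727 has only 424 exon bases, so its lower values rest on very few reads, near the floor of detection. Its Spearman likeness to Cwc22 over the 60 libraries was 0.71. Within the 13 high libraries it was 0.27. With exons that overlap Cwc22, its reads cannot be told apart from those of Cwc22 with certainty.

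Few genes behaved in this way. A gene was called 2-level where the widest gap between sorted libraries, with at least 6 libraries on each side, was at least 0.5 log2 and at least 2 times the larger SD of the sides. This held for 36 of 15608 genes, 0.231%, and for 7 of the 8 members, which were chosen for that pattern. The gaps of the 6 identical copies were 5.19 to 5.39 log2 wide. For Gm13695 the widest gap was 0.97 log2, with 7 libraries above it, and it missed the rule because its high values were spread out. Of the 29 other 2-level genes, 7 had a gap at least as wide as that of Cwc22, and 0 had 13 libraries above it. The 26 of them with a position lay on 14 chromosomes, 2 of them on chromosome 2.

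**Figure D4:**
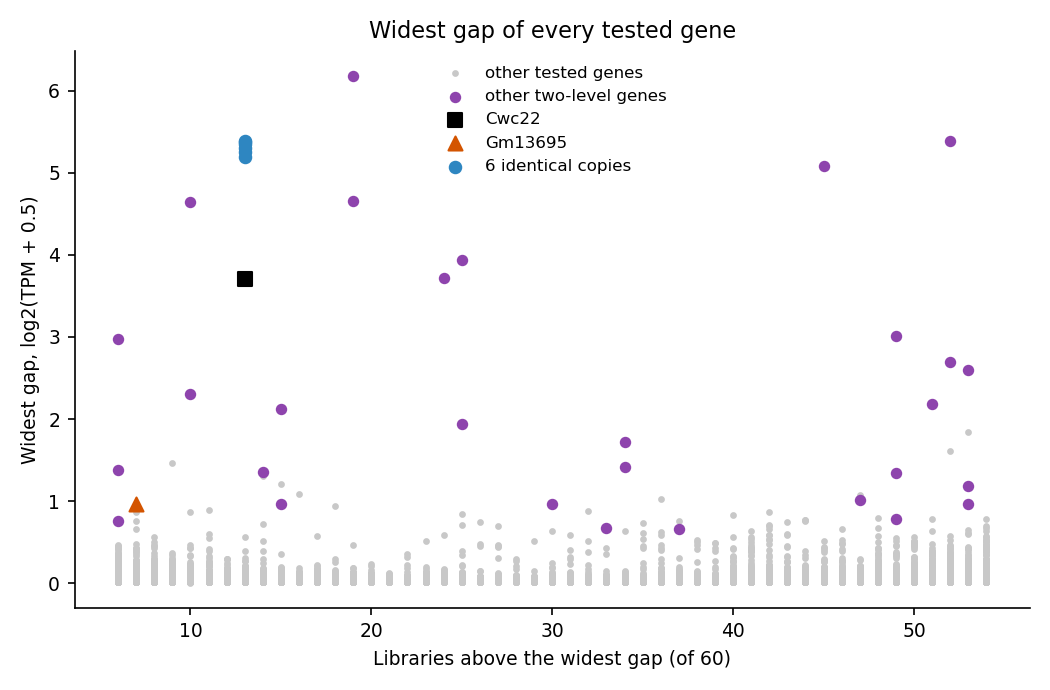
Widest gap of each of 15608 tested genes in log2(TPM + 0.5), against the number of libraries above it; grey points are other genes, purple ones the 29 other 2-level genes. Cwc22 and the 6 identical copies stand at 13 libraries, with gaps of 3.71 and of 5.19 to 5.39, and Gm13695 at 7 libraries with 0.97.

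Genes known from general knowledge to differ between mouse strains were looked at beside the family. Of the 11 on this list, 10 were tested, and 0 were 2-level. Nnt, a mitochondrial transhydrogenase with a known deletion in C57BL/6J, lay between 14.2 and 19.5 TPM over the 60 libraries. Gabra2, a GABA receptor subunit with a known variant of that strain, lay between 121 and 191 TPM, and Wdfy1 between 26.1 and 39.9 TPM. Entpd4 ran from 15.4 to 22.3 TPM, Ide, the insulin-degrading enzyme, from 26.6 to 40.4 TPM, and Alad, a heme synthesis enzyme, from 51.2 to 88.6 TPM. These 6 genes varied less than 2-fold, with no gap over 0.07 log2.

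The other tested genes of that list varied more. Glo1, the methylglyoxal-clearing enzyme that is duplicated in some strains, ran from 152 to 537 TPM, with a widest gap of 0.36 log2 between 186 and 240 TPM. H2-Ea-ps, an MHC class II sequence, ran from 0 to 7.32 TPM and was at 0 in 11 libraries. Gbp2b, an interferon-induced GTPase, ran from 0.0998 to 9.30 TPM, and Pttg1, the securin of mitosis, from 0.669 to 3.34 TPM. Among all 10, the Spearman likeness to Cwc22 lay between −0.33 and 0.31.

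No member passed the adjusted threshold between injections. limma was fitted to log2(TPM + 0.5) over all 60 libraries, each comparison was averaged over the 4 times, and p-values were adjusted over all genes. In CAC against Con, 0 of 8 members were called (0 at an unadjusted p under 0.05), against 19.8% of all tested genes. The difference of Cwc22 was 0.76 ± 0.58 (SE) log2 (limma adjusted p = 0.357). In NCAC against Con it was 1.77 ± 0.59 (limma adjusted p = 1.00), and in this comparison 0 of 8 members and 0% of genes were called. At an unadjusted p under 0.05 there were 379 genes here, among them all 8 members, which share their high libraries. In CAC against NCAC it was −1.004 ± 0.59 (limma adjusted p = 0.240), with 0 of 8 members called (0 at an unadjusted p under 0.05) against 15.7% of genes. The 3 comparisons share libraries, and they set groups side by side in which low and high libraries are mixed.

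The 6 identical copies had larger differences and larger errors than Cwc22, and Gm13695 smaller ones. For the 6 identical copies the differences were 0.84 to 0.86 log2 in CAC against Con, 2.28 to 2.31 in NCAC against Con and −1.46 to −1.43 in CAC against NCAC, with SE of 0.74 to 0.76. Gm13695 differed by 0.36 ± 0.43, 1.10 ± 0.44 and −0.74 ± 0.44 log2 (SE). Single libraries moved several of these values by over 1.5 times. Without CAC replicate 1 at 2 wk the CAC against Con differences were 0.49 to 0.51 in the identical copies and 0.17 in Gm13695, and without Con replicate 1 at 8 wk Gm13695 stood at 0.60. Without NCAC replicate 3 at 6 wk, Gm13695 stood at −0.48 in CAC against NCAC. Since the number of high libraries per injection was known when the genes were chosen, these values describe it again and add no evidence. The SE of Cwc22, 0.58 to 0.59, may be set beside that of its partner Eif4a3, 0.03 log2 in CAC against Con.

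The partners of CWC22 were measured in every library and none was 2-level. Eif4a3, the helicase of the exon junction complex core, lay between 53.4 and 76.0 TPM, Magoh between 34.6 and 62.0 TPM, Rbm8a between 25.4 and 37.6 TPM and Casc3 between 50.5 and 64.3 TPM. Of 13 listed exon junction complex genes, 1 was higher and 0 lower in CAC than in Con, the export adaptor Alyref (0.09 ± 0.03 log2, SE, limma adjusted p = 0.0392). Among all tested genes 19.8% were called in this comparison. Pnn, Casc3 and Sap18 differed by 0.06 ± 0.03, 0.04 ± 0.02 and 0.04 ± 0.03. The list's median difference was 0.03, as was that of all tested genes. Against NCAC, where 15.7% of all tested genes were called, 2 were higher in CAC, Pnn and Sap18, and between NCAC and Con 0 were called.

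Of 10 genes of nonsense-mediated decay, the pathway that destroys mRNA with early stop codons, 3 were higher and 0 lower in CAC than in Con, where 19.8% of all tested genes were called. They were Upf3b, which links the exon junction complex to decay (0.14 ± 0.04 log2), Smg5 (0.09 ± 0.03) and the endonuclease Smg6 (0.08 ± 0.03). Smg8 differed by 0.08 ± 0.03 and was not called (limma adjusted p = 0.0548). Of 30 genes of the activated spliceosome, 12 were higher and 0 lower, beside 2323 higher and 772 lower among all 15608 tested genes. Cwc27, a cyclophilin-like partner of CWC22, rose by 0.30 ± 0.06 log2 (limma adjusted p = 0.000297), Xab2 by 0.14 ± 0.03, the ubiquitin ligase Prpf19 by 0.09 ± 0.02 and Isy1 by 0.14 ± 0.03. The median differences of these lists were 0.07 and 0.07 log2, against 0.03 for all tested genes. With median-of-ratios scaling, the genes called in CAC against Con were 1348 higher and 1240 lower. Against NCAC, where 15.7% of all tested genes were called, 3 and 6 genes of the lists were higher in CAC and 0 lower. Between NCAC and Con 0 were called.

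The lists were also compared with Cwc22 library by library. The median Spearman likeness to Cwc22 over 60 libraries was 0.05 for the exon junction complex, 0.06 for nonsense-mediated decay and 0.22 for the activated spliceosome, against 0.06 for all other tested genes. The strongest member of each list reached 0.37, 0.25 and 0.47 in size, and 772, 3739 and 61 other genes were at least as strong.

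No tested gene within 2 Mb of the family was 2-level. Of 18 tested genes within 2 Mb of Cwc22, 3 were higher and 0 lower in CAC than in Con: Ccdc141 (0.28 ± 0.07 log2, SE), Sestd1 (0.11 ± 0.03) and Plekha3 (0.09 ± 0.03), with Ttc30b at 0.11 ± 0.04 not called. Of 24 tested genes within 2 Mb of the copies, 2 were higher, the histone chaperone subunit Ssrp1 (0.10 ± 0.03) and Fam171b (0.10 ± 0.04), and 2 lower, Gm19426 (−0.39 ± 0.13) and Lrrc55 (−0.22 ± 0.08). The 3 of 18 and 4 of 24 called lie near the 19.8% of all tested genes. The median Spearman likeness to Cwc22 was 0.14 in both windows. Besides Gm13727, the neighbour most like Cwc22 was Tfpi, the tissue factor pathway inhibitor, at 0.47.

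After Gm13727, the genes most like Cwc22 by Spearman rank over 60 libraries were Cep83os (0.54), Mettl8 (0.53), Sepsecs (0.53), Ebag9 (0.53), Smyd3 (0.53), Pskh1 (0.53), Cdon (0.52), A430105I19Rik (0.52) and Setdb2 (0.52). The most unlike were Pcgf6 (−0.53), Gm28042 (−0.53), Gm12942 (−0.51), Tmco5 (−0.50) and Sh2b2 (−0.50). For these 9 genes the likeness was 0.43 to 0.82 among the 47 low libraries and −0.36 to 0.27 among the 13 high ones. Cep83os reached 0.82 and −0.17, and Smyd3 0.74 and −0.36. The ranks of 47 libraries within a 1.66-fold range thus weigh most in this measure, and libraries share depth and composition.

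A likeness that gives weight to the jump itself, Pearson's r on log2(TPM + 0.5), put Gm13727 first again, at 0.80, and Mettl8 again among the first 10, but otherwise gave other genes, named here after their values were seen. Mtch2, a mitochondrial carrier homologue, had 0.44, Mettl8, an RNA methyltransferase, 0.44, Ndufaf1, an assembly factor of respiratory complex I, 0.43, Cd59a, an inhibitor of complement, 0.40, and Tfpi 0.39. On the other side stood Ddb2, a DNA damage sensor, at −0.55, and Gm13767 at −0.49. These genes are all on chromosome 2, with start sites at −6.89 Mb (Mettl8), 6.53 Mb (Tfpi), 12.4 Mb (Gm13767), 12.9 Mb (Mtch2), 13.3 Mb (Ddb2), 26.1 Mb (Cd59a) and 41.7 Mb (Ndufaf1) from that of Cwc22. With separate high and low libraries, such an r over all 60 mostly reflects the jump. Among the 13 high libraries alone the Spearman likeness of these 7 genes was 0.86 for Cd59a, 0.54 for Tfpi, 0.22 for Ndufaf1, 0.13 for Mtch2, 0.12 for Mettl8, −0.10 for Gm13767 and −0.24 for Ddb2. Among the 47 low ones it lay between −0.14 for Gm13767 and 0.43 for Mettl8, and Ddb2, at 0.29, had the opposite sign there.

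Of the 20 tested non-members with the strongest Pearson r in either direction, 11 lay on chromosome 2 (55%), and of the strongest 100, 27 did (27%). Among all 15029 tested non-members with a position, 1212 lay there (8.06%). By Spearman rank, 6 of the strongest 20 (30%) and 17 of the strongest 100 (17%) were on chromosome 2. Cut into 11 bins of distance, chromosome 2 had median sizes of r from 0.048 to 0.117, against 0.066 for the 13817 genes on other chromosomes. The 2 highest bins were those from 2 to 10 Mb before the start of Cwc22 (0.117, 53 genes) and from 2 to 10 Mb after it (0.106, 30 genes). The bins nearest to it were lower, 0.095 for the 11 genes up to 2 Mb before and 0.077 for the 4 genes up to 2 Mb after, so the size did not fall evenly with distance. Genes of 1 chromosome are not independent of each other, and no test was made.

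**Figure D5:**
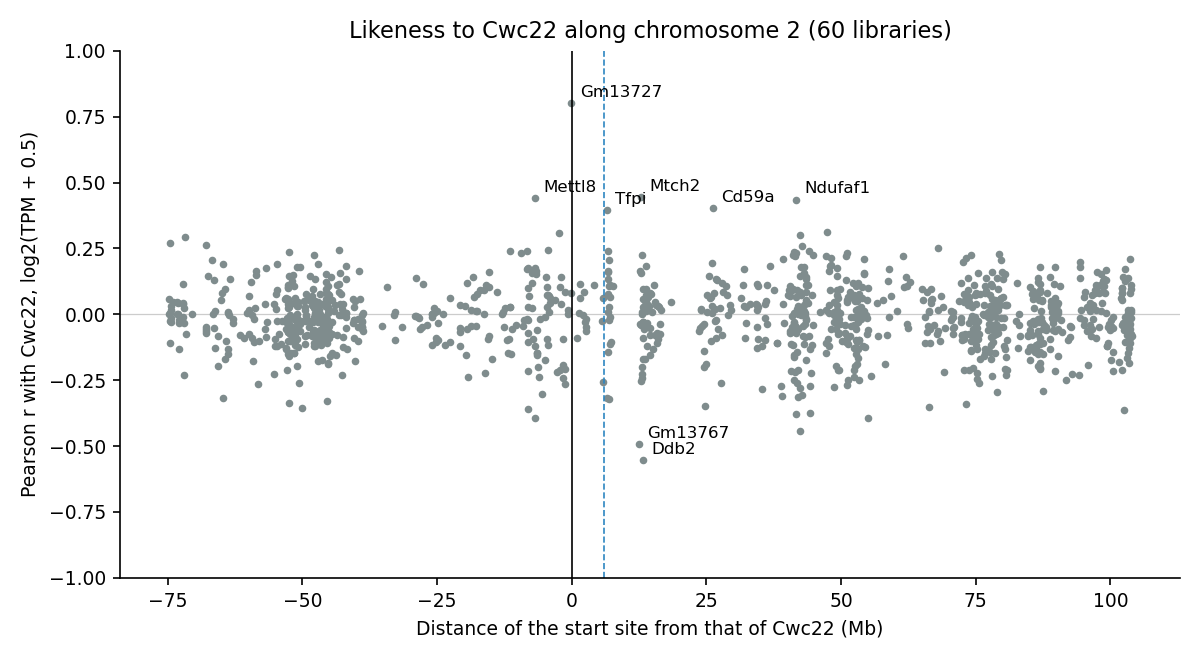
Pearson r with Cwc22 over 60 libraries for each tested non-member gene of chromosome 2, against the distance of its start site from that of Cwc22 in Mb; the solid line marks Cwc22 and the dashed line the copies. Gm13727 stands at 0.80. The labelled genes are those named in the text, and Pla2g4e, at −0.44 and 42.3 Mb, is not labelled.

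Tissue markers and depth were set beside these levels. All 8 hippocampal markers were expressed in every library, with sums of 564 to 1012 TPM, 622 to 1012 in the high libraries. Depth recovered from the values was 32388193 to 42046796 reads per library, and 32388193 to 39067663 in the high ones. Markers of tissue next to the hippocampus varied widely: choroid plexus summed to 41.4 to 10825 TPM, striatum to 50.7 to 1194, blood to 45.2 to 7921 and meninges to 62.5 to 212 TPM. The Spearman likeness of these sums and of the T cell sum to Cwc22 lay between −0.24 for blood and 0.28 for striatum. Of 9 T cell genes, 5 were at 0 in most libraries, Cd3e in 53 of 60, whereas Lck and Trac, with medians of 1.54 and 0.863 TPM, were at 0 in none, and Cd4 (up to 21.7 TPM) and Trbc2 (up to 5.02 TPM) in 1 each. Foxn1, the gene mutated in nude mice, did not exceed 0.150 TPM. The part of these tissues in the level of Cwc22 was not tested further.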

How the data were processed

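The authors deposited 1 table of TPM per gene symbol and library. Per the submitters' processing notes the build was mm10, and per the labels' protocols libraries were made with a TruSeq stranded mRNA kit and sequenced on a NovaSeq instrument. The aligner, counter and strand setting were not given in the sources used here. Because TPM is scaled to each library's total, a rise of abundant genes lowers all others.

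Within 0.02 of a read, whole reads were recovered from TPM for all 24227 genes above 0 (100%), on a scale set by the annotated length of the copies. Recovered reads served as a description only. limma 3.58.1 in R 4.3.3 was fitted with an intensity trend to log2(TPM + 0.5), with 12 group means, for 15608 genes with at least 1 TPM in at least 4 libraries, and Benjamini-Hochberg adjustment at 0.05. The fit was tested on simulated data with a normal spread per gene. That test does not cover 2-level genes such as Cwc22. Sequences came from GENCODE M21 and were aligned with Biopython 1.88. The members and gene lists were chosen with earlier results of these data known. Named were the members, the strain list, and the 10 genes most and 5 least like Cwc22 by Spearman rank. From other lists 4 genes with the smallest p in CAC against Con were named. Outside this rule stood Eif4a3, Magoh, Rbm8a and Tfpi, the genes given for Pearson's r, some markers, and the pairs of 2-level genes. Alternatives were pseudocounts of 0.1 and 1, no filter, median-of-ratios scaling, a replicate block, only the compared groups and leaving out each library. The Pearson likeness was added after the data were seen.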

Additional observations from a re-analysis of the deposited data

Results flagged for a closer look

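Within groups of 4 to 10 libraries, a value far from all others of its group was looked for in Cwc22 and in the sum of its 7 copies, and 4 libraries stood apart in both. CAC replicate 1 at 2 wk held 284 TPM of Cwc22 and 156 TPM of the copies. CAC replicate 6 at 8 wk held 268 and 153 TPM. In Con replicate 1 at 8 wk the values were 399.988 and 233 TPM, and in NCAC replicate 1 at 2 wk 560 and 296 TPM. Each is the single high library of its group. Chance flags about 1 in 20 groups under this criterion, but that rate does not hold for genes chosen for separate high and low levels. For these genes a group with a single high library is flagged by construction, so the flags add no evidence. The other 9 high libraries share their group with another high library, so the criterion cannot single them out.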

How the results depend on the processing

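Under every alternative run, 0 of 8 members passed in each comparison, and no difference of a member changed sign. Leaving out each library in turn gave Cwc22 differences of 0.51 to 1.02 log2 in CAC against Con, 1.51 to 2.02 in NCAC against Con and −1.26 to −0.74 in CAC against NCAC. For Gm13695 these ranges were 0.17 to 0.60, 0.84 to 1.33 and −0.94 to −0.48, and for the identical copies 0.49 to 1.17, 1.95 to 2.62 and −1.82 to −1.10. The number of genes called was 2407 to 3538 there, 1830 to 2991 in CAC against NCAC and 0 in NCAC against Con. With a replicate block the counts were 2519, 2069 and 0, and the Cwc22 differences 0.64, −1.13 and 1.76 log2. Libraries with the same replicate number did not in general deviate together (median correlation −0.004 over 308 pairs, 69 of them over 0.1). That median cannot exclude a pairing among some libraries. Median-of-ratios scaling changed the split of CAC against Con from 2323 higher and 772 lower to 1348 and 1240, and of CAC against NCAC from 1804 and 642 to 1192 and 1054.

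The 13 high libraries of Cwc22 and the 6 identical copies were the same number under each pseudocount and scaling, and 12 or 13 when a library was left out. For Gm13695 the number above the widest gap was 7, but 13 with a pseudocount of 0.1, and 6 to 12 when a library was left out, with 12 without NCAC replicate 1 at 8 wk. The list of the 10 genes most like Cwc22 kept 6 genes with median-of-ratios scaling and 2 with Pearson's r. A copy at 0 reads in a low library could lie at up to 0.0943 to 0.129 TPM at the depth recovered.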

Other observations

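Among the 29 other 2-level genes, 4 pairs were high in exactly the same libraries as each other, as found by comparing all 36 genes after their values were seen. Itpa, which removes damaged purine nucleotides, and A730017L22Rik lie near each other on chromosome 2, at 130667610-130681614 and 130873059-130906396 on GRCm38. Both were high in the same 6 libraries, 1 CAC, 1 NCAC and 4 Con, with 43.9 to 50.1 TPM of Itpa against 16.9 to 25.8 TPM in the other 54. Of these 6 libraries, 0 were high in Cwc22. Rps26-ps1 on chromosome 8 and Gm6563 on chromosome 19 were high in the same 19 libraries, 7 CAC, 8 NCAC and 4 Con. Rps26-ps1 held 96.0 to 522 TPM there and at most 0.834 TPM elsewhere, and 5 of the 19 libraries were high in Cwc22. Gm6356 and Gm3411, both on chromosome 14, shared 25 libraries, and D830030K20Rik and Gm3248, also on chromosome 14, shared 53. Pseudogenes and gene copies can take reads from their parent genes, and these values are uncertain for that reason.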
